A study of Mus musculus with 4 samples.

Results

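Immunoglobulin gene segments were measured on 4 arrays, 2 of proliferating Tregs and 2 of resting Tregs. The set held every gene of the heavy chain (Igh), kappa (Igk) and lambda (Igl) loci whose symbol marks a V, D, J or constant segment and that had a probe set with a single gene name. It comprised 20 of 22180 genes, namely 17 V segments, 1 J segment and 2 constant regions. No D segment was among them, and other constant regions were not analysed here. Both groups came from cultures in which Tregs, T-cells that restrain immune responses through the factor Foxp3, had been kept for 5 days with G-BMDCs, dendritic cells grown from bone marrow of NOD mice with GM-CSF. NOD mice develop autoimmune diabetes. Proliferating Tregs had diluted a division dye and resting Tregs had kept it, and flow sorting on that dye separated them. The labels call the dye CFSE and the methods Cell Trace Violet, and both groups shared strain, medium and culture time. Age, sex and any pooling of mice were not given in the sources used here, and no source tells whether the 2 samples of a group were cultured apart, so p-values measure the spread between samples, which may be technical.

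An antibody consists of heavy and light chains. B-cells assemble each chain gene by joining V and J segments, with a D segment in the heavy chain, and splice the product to a constant region. The enhancers and promoters of these loci are active in B-cells and plasma cells, and T-cells rearrange their own receptor loci instead. Naive B-cells carry IgM on the surface, most mouse antibodies use a kappa light chain, and plasma cells secrete antibody in large amounts.

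The labelled cell type was checked first. All 8 Treg and T-cell markers were higher in proliferating Tregs, and Foxp3 had values of 10.15 and 10.15 in proliferating Tregs, against 8.30 and 8.26 in resting Tregs (deposited values on the log2 scale, here and throughout). All 9 measured B-cell markers of 10 listed were lower in proliferating Tregs, with list means of 6.01 and 6.09 in proliferating arrays and 8.66 and 8.76 in resting arrays. In the resting arrays each of the 9 exceeded the 95th percentile of 1394 olfactory and vomeronasal receptor genes, most of which blood cells are not known to express and which therefore give the level of dim probe sets (6.47 and 6.41 in proliferating arrays, 7.07 and 7.05 in resting arrays). In proliferating arrays 2 and 1 of the 9 did so. Of all 22180 genes, 9071 and 9469 exceeded it in proliferating arrays and 4838 and 4934 in resting arrays. Of 6 plasma cell markers 5 were lower and none was higher. Among the lower ones, Sdc1, Tnfrsf17 and Derl3 lay below the 95th percentile of the receptor genes in every array. Jchain and Mzb1 exceeded it in both resting arrays. All 6 neutrophil markers were lower, with list means of 5.93 and 5.88 in proliferating arrays and 10.47 and 10.57 in resting arrays. Of 7 dendritic and myeloid markers 3 were higher and 1 was lower. Beside these lists, 34.5% of all genes were called lower and 25.6% higher. The part of other cell types in the results that follow was not tested. In bulk RNA, fewer cells of a type and less RNA per cell cannot be told apart.

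Immunoglobulin segments were lower in proliferating than in resting Tregs. Of the 20 genes, 18 fell past an adjusted p of 0.05 in limma's moderated test over all genes, none had a positive log2 fold change and 2 did not pass, whereas 34.5% of all genes were called lower and 25.6% higher. Both proliferating arrays lay below both resting arrays for 19 of the 20, beside 48.1% of all genes. The median log2 fold change, proliferating minus resting, was -2.10 over the segments and -0.17 over all genes. A fall of 2 or more on the log2 scale was called in 51 genes (0.23% of all), and 11 of these 51 were immunoglobulin segments. All genes together had medians of 6.18 and 6.17 in proliferating arrays against 6.42 and 6.40 in resting arrays, and a wider spread in proliferating arrays (SD 1.43 and 1.44 against 1.13 and 1.13). Centring the arrays on the median of all genes, on the olfactory and vomeronasal receptors, on housekeeping genes or on Cd3d, Cd3e and Cd3g left 18, 18, 20 and 20 of the segments called lower, beside 18.2%, 21.8%, 90.3% and 94.7% of all genes. Of all called genes 42.7% were higher as deposited, and 64.3%, 58.5%, 3.59% and 1.54% after these centrings in the same order. The methods' t-test called 13 of the segments lower without adjustment, beside 22.9% of all genes, and 9 after Benjamini-Hochberg adjustment, beside 6.9%. The methods' paired t-test without adjustment called 7, beside 11.3%.

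**Figure D1:**
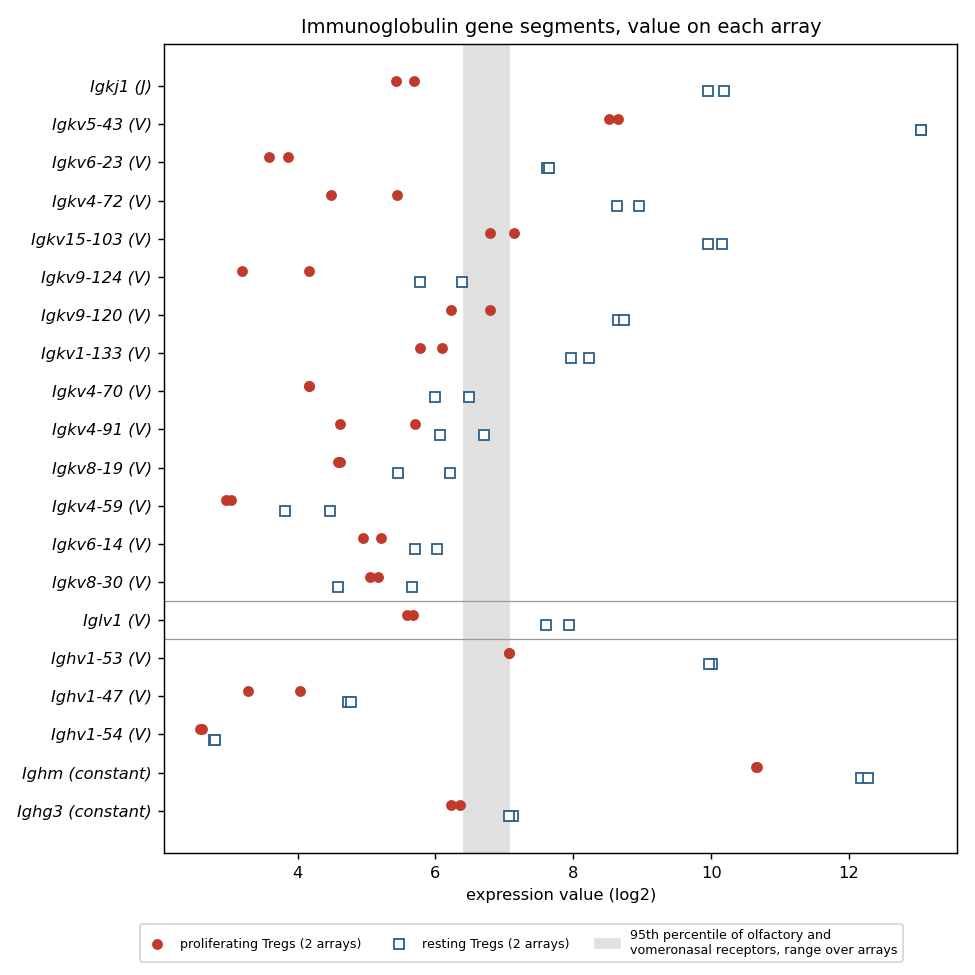
Expression value on the log2 scale (x axis) of the 20 immunoglobulin gene segments (rows, with segment type) on each array. Filled circles are the 2 proliferating arrays and open squares the 2 resting arrays, and the grey band spans 6.41 to 7.07, the 95th percentile of olfactory and vomeronasal receptor genes over the 4 arrays. In 19 rows both circles lie left of both squares, and only in Igkv8-30 do they overlap.

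The kappa locus gave 14 of the 20 segments, and 13 of them fell, by a median of 2.17 on the log2 scale over the 14. The J segment Igkj1, the part of the chain gene that links V to constant region, had values of 5.43 and 5.69 in proliferating Tregs, against 9.96 and 10.18 in resting Tregs. It fell by 4.51 on the log2 scale (standard error 0.15, adjusted p = 7.67e-06). Both proliferating values were within the range of dim probe sets, which held for 15 of the 20 segments in all, and there the size of a decrease is not resolved. RefSeq gives Igkj1 a length of 38 bases.

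The V segment Igkv5-43 stood at 8.52 and 8.65 in proliferating Tregs, against 13.05 and 13.05 in resting Tregs. Its log2 fold change was -4.46 (standard error 0.13, adjusted p = 6.67e-06). Unlike Igkj1, this probe set stayed above the 95th percentile of the olfactory and vomeronasal receptors in the proliferating arrays. Igkv6-23 had values of 3.59 and 3.86 in proliferating Tregs, against 7.62 and 7.65 in resting Tregs, and fell by 3.91 (adjusted p = 7.67e-06). Igkv4-72 had 4.49 and 5.44 in proliferating Tregs, against 8.64 and 8.95 in resting Tregs, and fell by 3.83 (standard error 0.29). These V segments encode the greater part of the antigen-binding domain of a kappa chain. Their groups lay far apart, and in the proliferating arrays Igkv6-23 and Igkv4-72 were within the range of dim probe sets.

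Of the other V segments of this locus, 3 were above that range in both resting arrays. Igkv15-103 had values of 7.14 and 6.79 in proliferating Tregs, against 10.16 and 9.96 in resting Tregs (log2 fold change -3.09, adjusted p = 1.37e-05). Igkv9-120 had 6.22 and 6.79 in proliferating Tregs, against 8.65 and 8.73 in resting Tregs (-2.19). Igkv1-133 had 5.78 and 6.09 in proliferating Tregs, against 8.23 and 7.96 in resting Tregs (-2.16). In all 3 the resting arrays were close to each other and more than 1 unit above the proliferating arrays, where Igkv1-133 was dim. Igkv9-124, within the dim range in all 4 arrays, had 4.17 and 3.19 in proliferating Tregs, against 5.78 and 6.38 in resting Tregs, and fell by 2.40 with a wider standard error of 0.32. It belongs to the same V family as Igkv9-120.

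The remaining kappa V segments were also below the 95th percentile of the olfactory and vomeronasal receptors in all 4 arrays. The Igkv4 family shows how members of 1 family varied. Besides Igkv4-72, Igkv4-70 had values of 4.17 and 4.17 in proliferating Tregs, against 6.48 and 6.0 in resting Tregs (-2.06). Igkv4-91 had 4.61 and 5.70 in proliferating Tregs, against 6.06 and 6.71 in resting Tregs (-1.23, adjusted p = 0.0181). Igkv4-59 had 2.96 and 3.03 in proliferating Tregs, against 4.47 and 3.81 in resting Tregs (-1.14). All 4 of the family fell, with log2 fold changes from -3.83 to -1.14, and how far the probes of such closely related segments detect each other's transcripts was not tested.

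Igkv8-19 had values of 4.61 and 4.59 in proliferating Tregs, against 5.46 and 6.21 in resting Tregs (-1.23, adjusted p = 0.00311). Igkv6-14 had 4.95 and 5.21 in proliferating Tregs, against 6.02 and 5.70 in resting Tregs (-0.78, adjusted p = 0.00523). Igkv8-30 had 5.05 and 5.16 in proliferating Tregs, against 5.66 and 4.59 in resting Tregs, and was the segment whose groups overlapped. Its change of -0.02 missed the threshold (95% interval -0.73 to 0.69, adjusted p = 0.956), and the interval does not show that the groups were alike. The calls of Igkv6-14 and Igkv4-91 depended on the normalization. After quantile normalization Igkv6-14 had -0.48 (adjusted p = 0.0541) and Igkv4-91 had -1.01 (adjusted p = 0.0727). The size of their changes varied when 1 array was left out, where only the size is given. Without resting replicate 1, Igkv6-14 had -0.62 and Igkv4-91 had -1.56. Without resting replicate 2, Igkv4-91 had -0.91, and without proliferating replicate 1 it had -0.69.

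V segments of the kappa locus are numbered by family and by their place from the J segments outward. Only measured segments were ordered here, by their place in RefSeq (GRCm38.p6). The 4 measured V segments nearest to Igkj1 had log2 fold changes of -0.78 (Igkv6-14), -1.23 (Igkv8-19), -3.91 (Igkv6-23) and -0.02 (Igkv8-30). The 4 most distant measured ones had -3.09 (Igkv15-103), -2.19 (Igkv9-120), -2.40 (Igkv9-124) and -2.16 (Igkv1-133). Both the largest and the smallest of these 8 changes were among the near segments. No test was made over segments, which are not replicates.

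The lambda locus gave 1 segment, Iglv1, a V segment of the light chain that few mouse B-cells use. It had values of 5.59 and 5.68 in proliferating Tregs, against 7.60 and 7.94 in resting Tregs. Its log2 fold change was -2.14 (standard error 0.15, adjusted p = 3.91e-05), with both resting arrays above and both proliferating arrays below the 95th percentile of the olfactory and vomeronasal receptors.

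**Figure D2:**
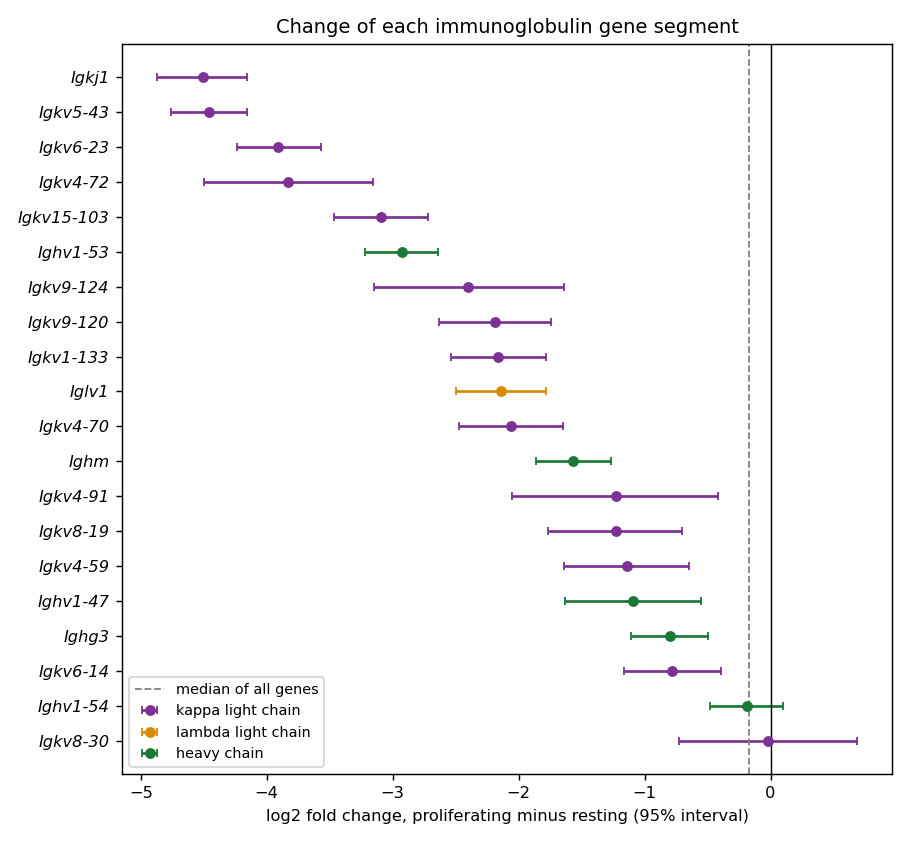
Log2 fold change, proliferating minus resting (x axis), of each immunoglobulin segment with its 95% interval from limma, ordered from the largest decrease. Colours mark the chain and the dashed line the median of all genes at -0.17. The intervals of Ighv1-54 and Igkv8-30 include 0, and those of the other 18 lie below it.

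Of the 5 heavy chain segments, 4 fell. Ighm, the constant region of IgM, had values of 10.65 and 10.67 in proliferating Tregs, against 12.17 and 12.28 in resting Tregs. It fell by 1.57 on the log2 scale (standard error 0.13, adjusted p = 6.43e-05) and was 2.96-fold higher in resting Tregs. In the proliferating arrays this probe set was still well above the dim range. Ighg3, the constant region of the IgG3 subclass, had 6.22 and 6.36 in proliferating Tregs, against 7.13 and 7.06 in resting Tregs, and fell by 0.80 (adjusted p = 0.00169). In the resting arrays Ighg3 lay only just above the 95th percentile of the olfactory and vomeronasal receptors.

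All 3 heavy chain V segments belong to the Ighv1 family, the largest of the mouse. Ighv1-53 had values of 7.06 and 7.06 in proliferating Tregs, against 10.01 and 9.97 in resting Tregs, and fell by 2.93 on the log2 scale (standard error 0.12, adjusted p = 9.33e-06). Ighv1-47 had 3.28 and 4.03 in proliferating Tregs, against 4.73 and 4.77 in resting Tregs (-1.09, adjusted p = 0.00524). Without resting replicate 1 or 2 its change was -1.11 or -1.07, and without proliferating replicate 1 it was -0.72. Ighv1-54 had 2.61 and 2.59 in proliferating Tregs, against 2.78 and 2.80 in resting Tregs, and missed the threshold (-0.19, adjusted p = 0.213). Its groups did not overlap, by a gap close to the median change of all genes, and its values were within the dim range in all 4 arrays. The 3 segments of this family thus ranged from -2.93 to -0.19.

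A gene could have several probe sets, and the one with the highest mean was taken for it. For Ighm this choice mattered. Of its 7 probe sets 6 fell when each was tested among all 41345 probe sets, and the 1 that stood for the gene showed a smaller decrease (-1.57, 95% interval -1.90 to -1.23) than 5 others. The next had values of 9.02 and 8.96 in proliferating Tregs, against 11.97 and 12.03 in resting Tregs (-3.01, 95% interval -3.33 to -2.69). Another had 6.78 and 6.63 in proliferating Tregs, against 10.27 and 10.28 in resting Tregs (-3.57, 95% interval -3.91 to -3.23). These intervals do not overlap with that of the representative. The other 4 changed by -2.12, -2.02, -3.11 and -0.55, the last missing the threshold (adjusted p = 0.165). The positions of these probes within the locus were not used here.

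For Igkv5-43 all 3 probe sets fell, with log2 fold changes of -4.46, -3.62 and -4.38. Only the first, which stood for the gene, stayed above the dim range in proliferating Tregs. The others had 5.95 and 6.20, and 3.90 and 4.45, there. Of the 2 sets of Ighg3, the dimmer had 5.45 and 5.35 in proliferating Tregs, against 5.51 and 5.42 in resting Tregs, and did not pass (-0.06, adjusted p = 0.718). The remaining 17 genes had 1 probe set each. A call for Ighg3 therefore rests on 1 of its 2 sets.

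Probe sets that carry several gene names were outside the rule, and 5 of them name an immunoglobulin segment. All 5 fell, where 26.2% of all probe sets were called lower. The one for Igkv9-124 and Igkv4-70 had values of 9.40 and 9.44 in proliferating Tregs, against 13.39 and 13.38 in resting Tregs (-3.96, adjusted p = 0.00078). The same names, each on a set of its own, were dim in every array. The one for Igkv4-53, Igkj1 and Igkv6-23 had 10.14 and 10.27 in proliferating Tregs, against 13.17 and 13.17 in resting Tregs (-2.96). Those that name Ighm together with V segments changed by -3.86 (with Ighg3 and Ighv1-47), -3.95 (with Ighv1-54 and Igkv1-135) and -2.19 (with Ighv1-72). Ighv1-54, which did not pass on a set of its own, is thus also named by a set that fell.

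**Figure D3:**
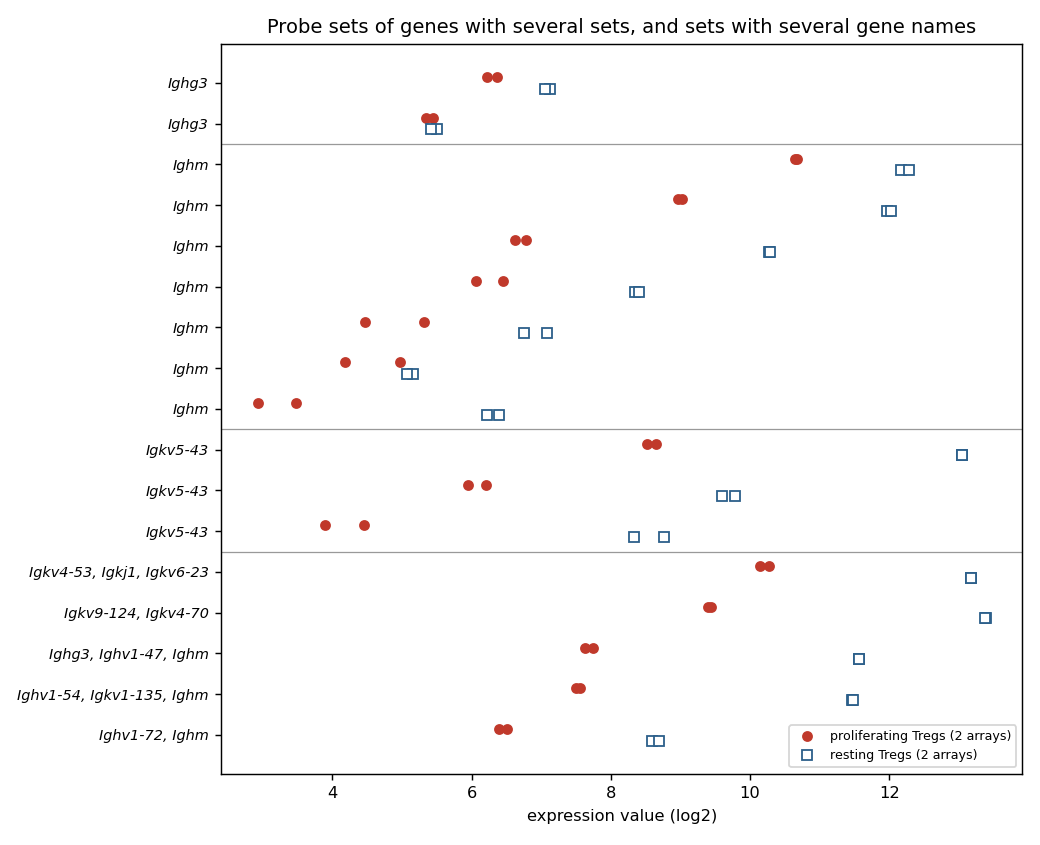
Expression value on the log2 scale (x axis) of each probe set of Ighg3, Ighm and Igkv5-43, the genes with several sets, and of the 5 sets with several gene names (rows). Filled circles are the 2 proliferating arrays and open squares the 2 resting arrays. The highest Ighm set (10.65 and 10.67 in proliferating, 12.17 and 12.28 in resting arrays) shows a smaller gap than the set below it.

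By segment type, 15 of 17 V segments fell, with a median log2 fold change of -2.14 and a range from -4.46 to -0.02. The 1 J segment changed by -4.51 and the 2 constant regions by -1.57 and -0.80. By chain, the medians were -2.17 over 14 kappa segments and -1.09 over 5 heavy chain segments, with -2.14 for the lambda segment. These are descriptions of small and unequal sets on different probes, and the difference between chains or types was not tested. In the proliferating arrays 4 and 5 of the 20 segments exceeded the 95th percentile of the olfactory and vomeronasal receptors, in the resting arrays 11 and 11. Of all 22180 genes, 9071 and 9469 did so in proliferating arrays and 4838 and 4934 in resting arrays. The percentile itself was lower in proliferating arrays (6.47 and 6.41 against 7.07 and 7.05).

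Genes of proteins that work with immunoglobulin moved in part with the segments. Of 11 measured receptor partners and coreceptors 9 were lower and 2 higher, beside 34.5% and 25.6% of all genes. Cd79a and Cd79b, which encode the signaling chains of the B-cell receptor, had values of 5.63 and 6.0, and 6.97 and 7.25, in proliferating Tregs. In resting Tregs they had 9.13 and 9.18, and 9.91 and 9.93. Their log2 fold changes were -3.34 and -2.81, within the range of the segments. Cr2, the complement receptor of B-cells, and the adaptor gene Blnk changed by -3.52 and -2.34. Cd81, a tetraspanin of many cell types, rose by 0.90 and the inhibitory Fc receptor gene Fcgr2b, which myeloid cells also express, by 0.49.

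Of 11 genes of antibody secretion 5 were lower and 3 higher, shares near those of all genes (34.5% lower and 25.6% higher). Jchain, which encodes the protein that joins IgM and IgA subunits, had values of 4.71 and 4.88 in proliferating Tregs, against 8.02 and 8.14 in resting Tregs (-3.29, adjusted p = 8.88e-06). Mzb1, a chaperone of IgM assembly, fell by 2.49 and the plasma cell surface gene Sdc1 by 0.87. Sdc1, like the lower genes Tnfrsf17 and Derl3, was within the dim range in every array. Edem1 and Xbp1, which serve protein quality control and secretion in many cells, rose by 1.5 and 0.93. Prdm1, the plasma cell factor Blimp-1 that Tregs also use, stood at 0.19 and missed the threshold (adjusted p = 0.234).

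Among 13 measured factors of immunoglobulin transcription, 8 were lower and 1 higher, beside 34.5% and 25.6% of all genes. Pou2af1, the coactivator OCA-B of the octamer factors, had values of 6.40 and 6.48 in proliferating Tregs, against 9.05 and 8.73 in resting Tregs (-2.45). Spib, Ebf1 and Pax5, which specify or maintain B-cells, changed by -2.30, -1.91 and -1.87. Pou2f2, the octamer factor Oct-2, fell by 0.71. Irf4, which activated T-cells and plasma cells share, rose by 0.40, and Tcf3, Spi1, Irf8 and Ikzf1 did not pass the test.

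The surrogate light chain pairs with the heavy chain in B-cell precursors. Of 10 measured genes of it and of rearrangement, 4 were lower, 1 was higher and 5 did not pass, and the share that was lower was near the 34.5% of all genes. Vpreb3, a protein of the endoplasmic reticulum in B-cells, had values of 5.68 and 5.66 in proliferating Tregs, against 7.36 and 7.58 in resting Tregs (-1.80). The surrogate light chain genes Vpreb2 and Igll1 fell by 1.03 and 0.45, and Vpreb1 had -0.05 (adjusted p = 0.771). Rag2, a subunit of the V(D)J recombinase, had -0.52 and did not pass (adjusted p = 0.125). Igll1, Vpreb1 and Rag2 were within the dim range in every array, and Vpreb2 exceeded it only in resting replicate 1. Xrcc4, a repair factor of the end-joining step, rose by 1.32. It had 6.31 and 6.41 in proliferating Tregs, against 5.22 and 4.86 in resting Tregs, and exceeded the dim range in only 1 array.

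The octamer ATTTGCAT is the best known element of immunoglobulin promoters, where it lies shortly before the start site. It was searched on both strands (ATGCAAAT on the other) in the RefSeq promoters of GRCm38.p6, from 250 bases before to 50 after the start. Among 84 listed partner genes and markers of T-cells, B-cells, plasma cells and myeloid cells, 67 had a promoter there, and 2 held the octamer, Vpreb3 and Blnk, beside 1.74% of all promoters. They are shown as the only listed genes with a match, with the octamer in capitals. Both genes fell with the segments, but direction of change played no part in the choice. A match is a description and no proof of a site.
Vpreb3, chr10:75948050-75948349, plus strand: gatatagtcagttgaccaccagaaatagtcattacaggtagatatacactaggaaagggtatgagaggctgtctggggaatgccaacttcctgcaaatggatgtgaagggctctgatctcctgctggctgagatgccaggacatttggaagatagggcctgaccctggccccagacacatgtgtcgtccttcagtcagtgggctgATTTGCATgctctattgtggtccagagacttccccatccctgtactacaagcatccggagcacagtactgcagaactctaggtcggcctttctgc
Blnk, chr19:40994172-40994471, minus strand: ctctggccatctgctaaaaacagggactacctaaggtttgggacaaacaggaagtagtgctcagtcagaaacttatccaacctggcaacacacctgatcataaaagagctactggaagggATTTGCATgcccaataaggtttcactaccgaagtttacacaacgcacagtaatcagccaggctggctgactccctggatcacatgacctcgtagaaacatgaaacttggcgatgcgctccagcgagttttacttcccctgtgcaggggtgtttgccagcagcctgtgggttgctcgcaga

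In Vpreb3 the octamer began 45 bases before the start, and in Blnk 130 bases before it. Promoters of the V segments themselves were not used here.

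Of 15 receptors of immunoglobulin 7 were lower, 5 were higher and 3 did not pass, beside 34.5% lower and 25.6% higher of all genes. Fcmr, the receptor of IgM, had values of 7.10 and 7.05 in proliferating Tregs, against 9.24 and 9.37 in resting Tregs (-2.23), and Fcer2a, the B-cell receptor of IgE, changed by -2.16. Fcrla, an Fc receptor-like gene of B-cells, changed by -2.02. Receptors that myeloid cells express were among those higher. Fcer1g, the signaling subunit of several Fc receptors, had 9.78 and 9.74 in proliferating Tregs, against 7.84 and 8.19 in resting Tregs (1.75), and Fcgr1 and Fcgr3 rose by 0.85 and 0.67.

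**Figure D4:**
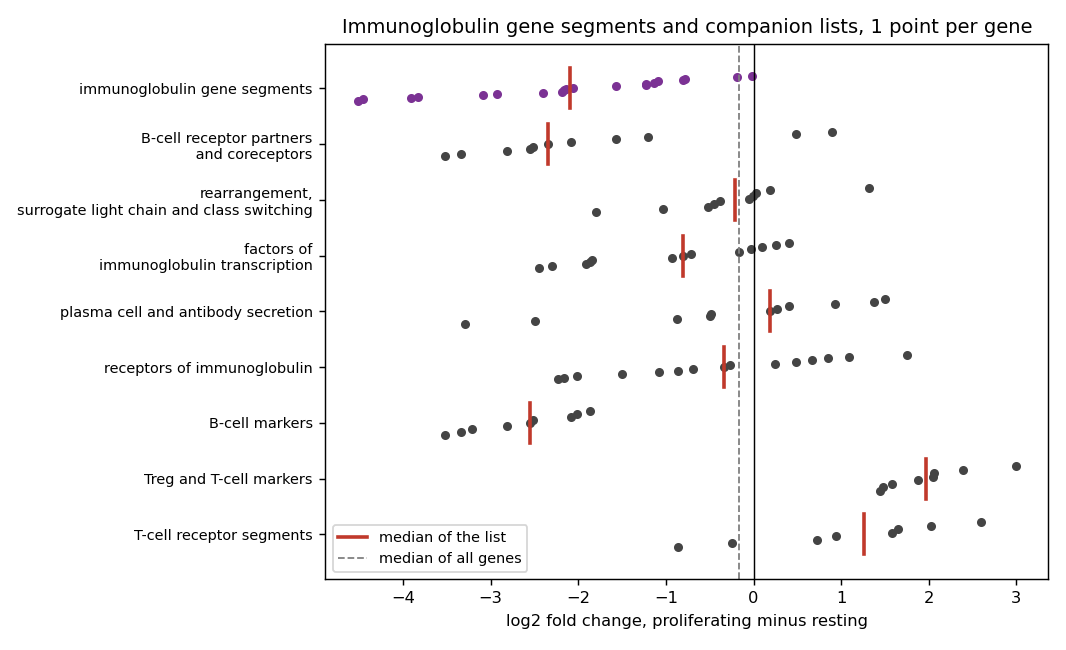
Log2 fold change, proliferating minus resting (x axis), with 1 point per gene, of the immunoglobulin segments, the 5 lists of partner genes, the B-cell and Treg markers and the T-cell receptor segments (rows). Red bars are medians and the dashed line is the median of all genes at -0.17. The medians of immunoglobulin segments (-2.10), receptor partners (-2.34) and B-cell markers (-2.55) lie left of it, and those of Treg markers (1.96) and T-cell receptor segments (1.26) to its right.

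Gene segments of the T-cell receptor, the sister family that rearranges in T-cells, gave a contrast within the same arrays. Of 8 such genes 6 were higher in proliferating Tregs and 1 was lower, beside 25.6% and 34.5% of all genes. Their median log2 fold change was 1.26. The alpha chain segment Trav9d-3 had values of 12.01 and 12.11 in proliferating Tregs, against 9.85 and 10.20 in resting Tregs (2.03), and the beta chain segment Trbv13-2 had 8.77 and 8.91 in proliferating Tregs, against 7.30 and 7.23 in resting Tregs (1.58). The decrease was in Trgv6 (-0.86), a gamma chain segment. Trgv5, of the same locus, did not pass (-0.25, adjusted p = 0.183). Both were within the dim range in every array, as was Trav3-4 (0.72), which was among the higher ones. The 1394 olfactory and vomeronasal receptor genes had a median of -0.18, with 27.7% called lower and 5.16% higher, so that dim genes as a class were called lower more often than higher. Of the 20 immunoglobulin segments 9 were dim in all 4 arrays by the 95th percentile of these receptors.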

How the data were processed

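RNA of Tregs sorted by dye dilution was hybridised to 1 Affymetrix array per sample, 2 proliferating and 2 resting. The deposited log2 values were produced by the authors with RMA in Partek 6.6, as their processing notes say. In RMA, background is removed, signals are quantile normalized between arrays and each probe set is summarised by median polish. The methods instead describe housekeeping gene controls and R, and name another array design. The log2 scale was read from these notes and the range of values, and centring is unstated. Despite the quantile step of RMA, the deposited values did not have matched distributions. Medians over all probe sets were 6.00 and 5.97 in proliferating arrays, against 6.27 and 6.27 in resting arrays. The SD over all genes was 1.43 and 1.44, against 1.13 and 1.13. Whether both groups were normalized together was not tested. Quantile normalization of the deposited values left 10149 genes called instead of 13335, and 16 segments called lower instead of 18. The genome build behind the probes was not given in the sources used here.

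Of 41345 probe sets, 23521 had 1 gene symbol in the platform annotation, 1820 had several and 16004 were unnamed here. By gene identifier 23328 of the named sets matched RefSeq (GRCm38.p6), with 0 symbols changed. The set of highest mean stood for each of 22180 genes, with dim genes kept in. Immunoglobulin genes were symbols starting with Igh, Igk or Igl followed by v, j or c, or Igh followed by m, d, g, a or e, without Ighmbp2. T-cell receptor segments were taken by symbol in the same way, without the adaptor gene Tradd. Proliferating minus resting was tested by limma 3.58.1 (lmFit, eBayes; R 4.3.3; prior of 5.48 and residual of 2 degrees of freedom) with Benjamini-Hochberg adjustment over all genes, at 0.05. Probe sets were fitted separately over all 41345. An exact permutation test of 2 against 2 arrays cannot go below a two-sided p of 0.333 and was not used. The fit was run on simulated data drawn with each gene's moderated SD, after a first draw with unmoderated SDs had recovered fewer of the changed genes. The noise thus came from the fit's own estimates, so this run checked the code and gives no support to the results.

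The members, lists and the rule for naming genes were chosen with earlier results of these data known. All 20 members are named, and of each companion list up to 6 genes with their values, chosen after these were seen. Probe sequences were not used here. Precision is limited by the number of arrays. Without detection calls, a dim value says nothing of absence. The alternatives concern the prior, the filter on dim genes, the choice of probe sets, normalization, centring, a replicate block, each array left out and the methods' t-tests.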

Additional observations from a re-analysis of the deposited data

How the results depend on the processing

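No alternative called an immunoglobulin segment higher, where the test as reported gave 18 lower of 20. The count of segments called lower was 9 with dim genes left out (beside 23.7% of all genes kept), 13 by the methods' t-test without adjustment (22.9%), 9 after Benjamini-Hochberg adjustment of it (6.9%) and 7 by the methods' paired t-test without adjustment (11.3%). The filter on dim genes used the mean over the 4 arrays (limit 6.70) and kept 9 of the 20 segments. Of these, 4 (Igkj1, Igkv1-133, Igkv4-72 and Iglv1) had both proliferating values in the dim range. The proliferating mean of Igkv9-120 (6.51) was also under the limit. The change itself thus helped to choose the kept segments, and neither their count nor their median supports the result. Counted as probe sets that name a segment, 29 of 34 were lower, beside 26.2% of all probe sets. With each array left out in turn a group kept 1 array, and for these fits the effect size over the segments is given next. Over the segments, the median log2 fold change was -2.93 with dim genes left out, -3.65 after housekeeping centring and -4.07 after Cd3 centring, when the median of all genes was 0.44, -1.72 and -2.14, and -2.03 to -1.93 with each array left out.

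All genes called numbered 13335 as reported, 6310 with dim genes left out, 20765 after housekeeping centring, 21338 after Cd3 centring, 4312 by the methods' t-test (adjusted by Benjamini-Hochberg), 5515 by the methods' paired t-test and 3777 with a minimum log2 fold change of 1. With each array left out they numbered 8341 to 13272, with 8341 without resting replicate 1.

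Of the 18 segments called lower, 7 (Ighm, Ighv1-53, Igkj1, Igkv5-43, Igkv6-23, Igkv15-103 and Iglv1) passed in every alternative that tested them, and 11 missed the threshold in 1 or more. Signs turned only for the 2 segments that had not passed. Ighv1-54 had 0.04 after median centring. Igkv8-30 had 0.24 after quantile normalization, 0.21 after median centring and 0.15 after centring on the olfactory and vomeronasal receptors, and -0.55 to 0.51 with each array left out. Where a group kept 1 array, that array was assumed to vary like those of the other group. No effect shared by same-numbered arrays was visible, since their deviations had a correlation of 0.0179 across genes. This does not tell whether the samples were paired when they were collected. With a replicate block 13694 genes and 18 segments were called, with a median of -2.10. The second probe set of genes with several, an alternative chosen after seeing the data, gave 17 lower segments, beside 33.9% of all genes.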
